A study of Chlorocebus sabaeus with 32 samples.

Results

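The expression of 10 astrocyte transport and coupling genes was followed in the vervet monkey hippocampus: *SLC1A2*, *SLC1A3*, *GLUL*, *GJA1*, *GJB6*, *AQP4*, *KCNJ10*, *SLC4A4*, *GFAP* and *ALDH1L1*. They were the rows of a gene count table that carry these 10 symbols, out of 33994 gene rows, and all 10 were found and counted in every library. The series holds 32 libraries of total RNA from hippocampus of *Chlorocebus sabaeus*, and its design text names developmental change in the transcriptome as the subject. The labels put every sample in one age class, under 1 yr, and state no treatment, genotype or sex. Each title begins with a year-like prefix, and the sets of libraries are named after it: prefix2009 (14 libraries), prefix2010 (16) and prefix2011 (2). An identifier that carries a number follows the prefix. What the prefix and the number stand for is not stated, so the prefixes are used as sets of titles and not as ages. All 14 libraries of prefix2009 have a title number below 20000, against 7 of the 16 of prefix2010 and neither of the 2 of prefix2011. Each title carries its own identifier and was taken as 1 animal. The labels do not state this outright, so p-values measure the spread between these libraries.

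Astrocytes clear transmitter, potassium and water from the space around synapses. *SLC1A2* and *SLC1A3* encode the glutamate transporters GLT-1 and GLAST, and *GLUL* encodes glutamine synthetase, which turns the glutamate taken up into glutamine that neurons can use again. *GJA1* and *GJB6* encode connexin 43 and connexin 30, which join astrocytes into a network through gap junctions. *AQP4* encodes the water channel and *KCNJ10* the inward rectifier potassium channel Kir4.1, both concentrated at endfeet on blood vessels, and *SLC4A4* encodes a sodium bicarbonate cotransporter. *GFAP* encodes the intermediate filament of astrocytes and *ALDH1L1* a folate enzyme used as an astrocyte marker. Several of these genes are known to increase during postnatal maturation of the brain in other mammals.

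The libraries held 9347635 to 19673621 counts in genes (median 16201657), so that 3 counts, the limit that a count of 0 allows, correspond to 0.152 to 0.321 CPM, the unit in which every library is scaled to the same total. The share of reads assigned to no gene feature was 51.3% to 67.1%. Library 1 of prefix2009 stood apart, with the lowest count total, the highest share of such reads, the highest value of 5 of the 10 genes and the lowest value of *GFAP*, and results that rest on it are given with and without it. Of 15 other astrocyte markers, all 15 were counted and none was at 0, with a summed level of 4573 to 7510 CPM per library. Bulk tissue was sequenced, so fewer astrocytes and less of a transcript per astrocyte cannot be told apart. CPM are not scaled by gene length, so levels below are compared between libraries and not between genes.

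The glutamate group varied most through *SLC1A2*. In prefix2009 its level had a lowest value of 2367, a median of 3016 and a highest value of 5506 CPM, and in prefix2010 of 1933, 2376 and 3878 CPM. The 2 libraries of prefix2011 had 1848 and 2423 CPM. In prefix2010, 7 of the 16 libraries lay below every library of prefix2009, and the ranges overlapped. The next highest library of prefix2009 after library 1 had 3654 CPM. *GLUL* ranged over 1155, 1544 and 2704 CPM (lowest, median, highest) in prefix2009 and over 1102, 1354 and 1868 CPM in prefix2010, with 13 of 16 libraries of prefix2010 below the prefix2009 median. *SLC1A3* was the steadiest of the 3, with 1004, 1072 and 1702 CPM in prefix2009 and 899, 1089 and 1247 CPM in prefix2010. Its biological coefficient of variation, edgeR's estimate of the spread between libraries beyond counting error, was 0.134 over all libraries, against 0.224 for *SLC1A2* and a median of 0.157 over 19959 genes.

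The connexins differed in spread. *GJA1* had 230, 263 and 339 CPM in prefix2009 and 208, 247 and 340 CPM in prefix2010. *GJB6* was the most variable of the 10 genes, with a coefficient of 0.313 that exceeded 90.7% of genes. Its level was 37.2, 54.5 and 69.4 CPM in prefix2009 and 14.2, 45.8 and 64.8 CPM in prefix2010. In prefix2010, 7 libraries lay below the lowest library of prefix2009, and library 11 of prefix2010 alone was at 14.2 CPM.

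Of the transport genes, *KCNJ10* separated the prefixes furthest without separating them fully. It had 118, 145 and 274 CPM in prefix2009 and 81.1, 110 and 192 CPM in prefix2010, and the 2 libraries of prefix2011 were at 72.6 and 92.6 CPM. In prefix2010, 10 of the 16 libraries lay below the lowest library of prefix2009. *AQP4* pointed the other way, with 815, 966 and 1411 CPM in prefix2009 and 895, 1203 and 1406 CPM in prefix2010, and 14 of 16 libraries of prefix2010 lay above the prefix2009 median. *SLC4A4* had 304, 382 and 635 CPM in prefix2009 and 300, 370 and 497 CPM in prefix2010, overlapping over nearly the whole range. *KCNJ10* overlaps *KCNJ9* in the RefSeq annotation of assembly mChlSab1.0.hap1. *KCNJ9* was at 75.4 to 176 CPM, and reads in the overlap were not separated here.

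The filament gene *GFAP* had 712, 1610 and 2378 CPM in prefix2009 and 1146, 1546 and 2321 CPM in prefix2010. Its lowest value came from library 1 of prefix2009, the next lowest of that prefix being 1237 CPM. *FAM187A*, which overlaps *GFAP*, was at 3.48 to 13.7 CPM. *ALDH1L1* had 38.5, 48.9 and 69.0 CPM in prefix2009 and 46.3, 54.8 and 111 CPM in prefix2010. Libraries 1 and 15 of prefix2010 held 90.5 and 111 CPM of *ALDH1L1*, above the other 14 of that prefix, which stayed between 46.3 and 62.1 CPM. A noncoding RNA that overlaps *ALDH1L1*, LOC103228128, was at 0.763 to 2.53 CPM over the libraries and at 1.61 and 1.94 CPM in these 2.

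**Figure D1:**
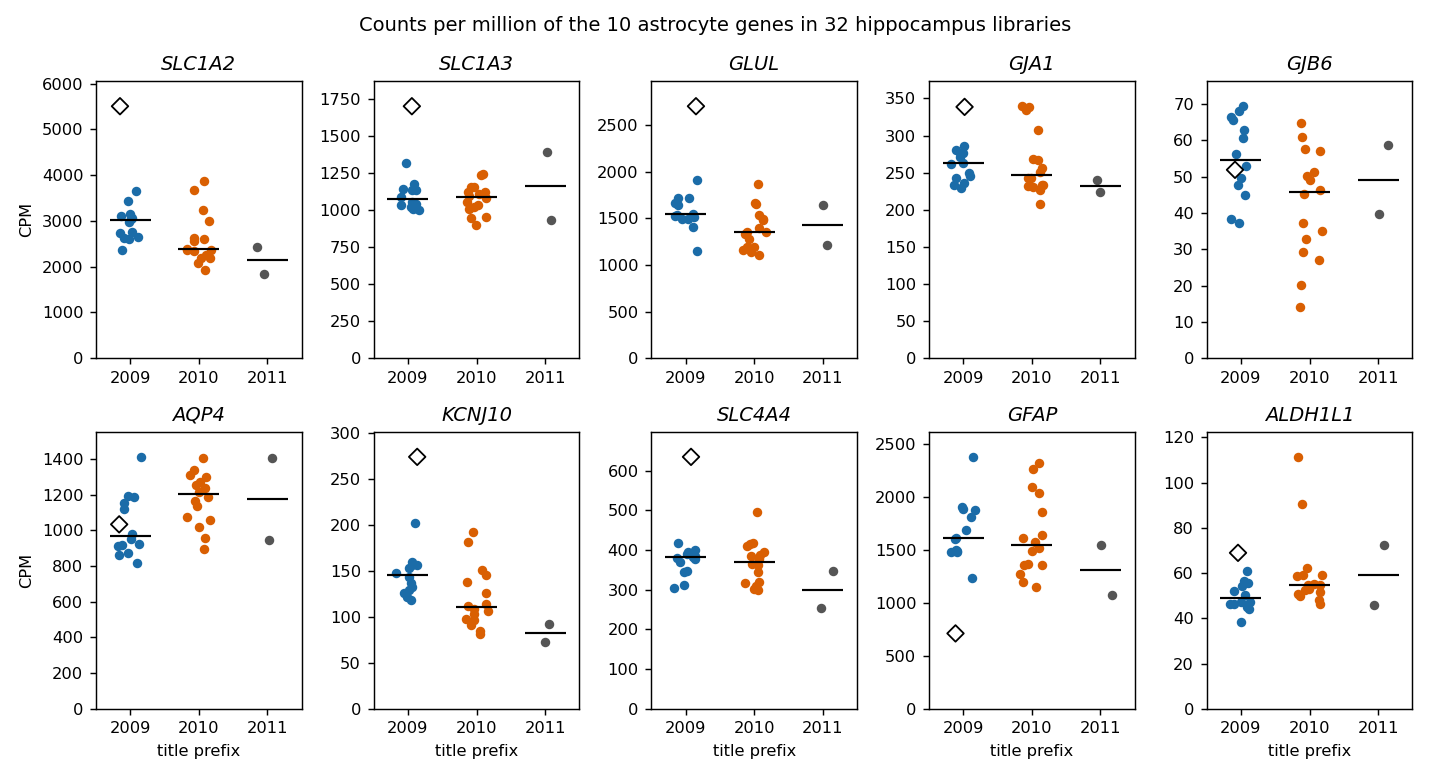
Level of each of the 10 genes (CPM, linear axis from 0) in the 32 libraries by title prefix; points are libraries, lines are prefix medians and the open diamond is library 1 of prefix2009. The diamond is highest for *SLC1A2*, *SLC1A3*, *GLUL*, *KCNJ10* and *SLC4A4* and lowest for *GFAP*, and the prefixes overlap for every gene.

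The first comparison asked whether the 10 genes differ between prefix2010 and prefix2009. None of the 10 passed edgeR's quasi-likelihood test at a Benjamini-Hochberg adjusted p under 0.05 over 23977 genes, of which 12.4% passed. Of the 10, 6 had an unadjusted p under 0.05, as did 6522 of the 23977 genes. DESeq2 called 2 of the 10 and 14.8% of all genes tested. The largest log2 differences (prefix2010 minus prefix2009, ± SE) were -0.37 ± 0.16 for *GJB6* (adjusted p = 0.123), -0.35 ± 0.12 for *KCNJ10* (0.0568), -0.25 ± 0.11 for *SLC1A2* (0.106) and -0.24 ± 0.09 for *GLUL* (0.0714). *ALDH1L1* and *AQP4* had positive differences of 0.24 ± 0.11 (0.132) and 0.21 ± 0.08 (0.0722). *SLC1A3*, *SLC4A4*, *GFAP* and *GJA1* lay between -0.07 and 0.02, and the median over the 10 was -0.07 against 0.01 over all genes tested. In DESeq2 *KCNJ10* and *GLUL* passed, at adjusted p = 0.035 and 0.0482. Over the alternatives that kept all libraries or left out a named set, the adjusted p ran from 0.035 to 0.709 for *KCNJ10*, from 0.0482 to 0.848 for *GLUL* and from 0.033 to 0.687 for *AQP4*. With 1 library left out at a time, it ran from 0.0179 to 0.0996 for *KCNJ10*, from 0.0302 to 0.117 for *GLUL* and from 0.0211 to 0.131 for *AQP4*. With libraries 1 and 15 of prefix2010 left out, the *ALDH1L1* difference was 0.09 ± 0.07.

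Leaving out single libraries moved these calls. Without library 16 of prefix2010, which was among the highest 5 libraries for 9 of the 10 genes, *SLC1A2*, *GLUL* and *KCNJ10* were lower in prefix2010, at adjusted p = 0.0378, 0.0302 and 0.0217. Without library 8 of prefix2009, *GLUL* and *KCNJ10* were lower, at 0.0337 and 0.0426. *KCNJ10* also passed without library 10 of prefix2009 or library 3 or 4 of prefix2010, and *AQP4* passed as higher without library 5 of prefix2009 or library 1 or 4 of prefix2010. Without library 1 of prefix2009 none of the 10 passed, and *SLC1A2* had a log2 difference of -0.17.

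Marker lists of other cell types also differed between the prefixes. Of 9 measured immature neuron markers, 8 were higher in prefix2010 and none was lower. Their summed level was 840 to 1704 CPM in prefix2009 and 1009 to 2462 CPM in prefix2010. *SOX4*, a transcription factor of newborn neurons, had a log2 difference of 0.76 ± 0.11 (adjusted p = 0.000143) and *DCX*, a microtubule protein of migrating neurons, of 0.69 ± 0.13 (0.000807). Of 7 mature neuron markers 4 were lower, among them *SNAP25*, a synaptic vesicle fusion protein, at -0.49 ± 0.09 (0.000953), and their sum was 4367 to 8809 CPM in prefix2009 and 4448 to 7273 CPM in prefix2010. Of the other lists, 4 of 9 radial glia and progenitor markers and 3 of 6 oligodendrocyte precursor markers were higher. The sums ran from 550 to 905 CPM and from 911 to 1676 CPM in prefix2009, and from 764 to 1275 CPM and from 1191 to 1867 CPM in prefix2010. No marker in these 4 lists was at 0 in all libraries. Over all genes, 7.07% were called higher and 5.29% lower. With the immature neuron score, described below, added as covariate, 0 of the 10 genes passed, the difference of *KCNJ10* was 0.24 ± 0.14 and that of *SLC1A2* 0.20, and 1 gene of 23977 was called. The score differs between the prefixes, and in this fit the part of each cannot be told apart. The part of the other lists in the differences was not tested.

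Since prefix2009 has low title numbers only, the prefixes were compared again within low numbers, 7 libraries against 14. *GLUL*, the glutamine synthetase gene, was lower in prefix2010. Its level was 1102, 1277 and 1482 CPM in the 7 libraries of prefix2010 and 1155, 1544 and 2704 CPM in prefix2009, and the ranges overlapped. The log2 difference was -0.37 ± 0.11 (adjusted p = 0.0429), where 1.92% of genes were called lower. The other 9 genes did not pass, with differences from -0.40 for *GJB6* to 0.22 for *ALDH1L1*. The *GLUL* call was lost in 10 of the 21 fits that left out 1 library, namely library 2, 4, 5, 6, 13 or 14 of prefix2009 or library 1, 4, 11 or 12 of prefix2010, where its adjusted p reached 0.112. Over the other alternatives its adjusted p ran from 0.0165 to 0.962, the latter when the immature neuron score was added.

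Within prefix2010, the 9 libraries with high title numbers were compared with the 7 with low numbers. None of the 10 genes passed, and 0% of 23977 genes were called by edgeR, with 2914 at an unadjusted p under 0.05 and 108 called by DESeq2, none of them among the 10. None of the 10 had an unadjusted p under 0.05. The log2 differences (high minus low) lay between -0.14 ± 0.17 for *KCNJ10* and 0.22 ± 0.12 for *GLUL*.

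The next comparison set each gene against an expression measure of immaturity. The immature neuron score was the mean standardized log2 CPM of 9 genes, *DCX*, *SOX4*, *SOX11*, *STMN1*, *NREP*, *DPYSL3*, *IGFBPL1*, *CD24* and *NNAT*, scaled to a standard deviation of 1 over the libraries, and it holds none of the 10 genes. Of the 10 astrocyte genes 6 were lower in libraries with a higher score and none was higher, where 17.1% of 19950 genes outside the score were called lower and 17% higher. *KCNJ10* had the largest slope, -0.33 ± 0.05 on the log2 scale per SD of the score (adjusted p = 6.31e-07). *SLC1A2* followed at -0.24 ± 0.04 (3.33e-05), *GJB6* at -0.20 ± 0.07 (0.0329), *GLUL* at -0.17 ± 0.04 (0.000645), *SLC4A4* at -0.13 ± 0.04 (0.00627) and *GJA1* at -0.09 ± 0.03 (0.0326). Both connexin genes were among the 6. *SLC1A3* at -0.07 ± 0.03 (0.101), *GFAP* at -0.10 ± 0.06 (0.228), *AQP4* at 0.06 ± 0.04 (0.304) and *ALDH1L1* at 0.12 ± 0.05 (0.0511) did not pass.

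The prefixes differ in this score, with a mean of -0.88 in prefix2009, of 0.58 in prefix2010 and 1.54 in prefix2011. The slopes were therefore also taken within prefixes. With the prefix as a factor, *KCNJ10* had a slope of -0.41 ± 0.07 (adjusted p = 0.000269), *SLC1A2* of -0.31 ± 0.07 (0.00265), *GLUL* of -0.23 ± 0.06 (0.014), *SLC4A4* of -0.21 ± 0.06 (0.0178) and *GJA1* of -0.20 ± 0.05 (0.00622). *GJB6* no longer passed (-0.23 ± 0.13, adjusted p = 0.264), and the *AQP4* slope was -0.07 ± 0.07 (0.513). The correlation of log2 CPM with the score was r = -0.79 for *KCNJ10* over 32 libraries (Spearman's rho = -0.81, permutation test, adjusted p = 0.0003 over 30 relations). Here and below, an adjusted p beside both r and rho is that of r. For *KCNJ10* r was -0.65 in prefix2009 (0.0978), -0.71 in prefix2010 (0.0277) and -0.73 without the 2 libraries farthest from the median score. For *SLC1A2* r was -0.70 (rho = -0.73, permutation test, adjusted p = 0.0003). It was -0.57 in prefix2009, which did not pass (0.127), -0.65 in prefix2010 (0.0481) and -0.67 without the 2 farthest libraries. By rho *SLC1A2* passed in neither prefix, with -0.32 in prefix2009 (adjusted p of rho 0.799) and -0.63 in prefix2010 (0.0802). Without library 1 of prefix2009, r was -0.68 for *SLC1A2* (0.0006) and -0.77 for *KCNJ10* (0.0003).

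*KCNJ10*, *SLC1A2*, *GLUL* and *SLC4A4* passed in each of the 32 fits that left out 1 library and in each of 9 other alternatives. *GJA1* passed in 27 of the 32 and was lost without library 1 of prefix2009 (-0.07 ± 0.03, adjusted p = 0.0964), library 12, 14 or 16 of prefix2010 or library 1 of prefix2011. *GJB6* passed in 29 and was lost without library 2 of prefix2009 or library 14 or 15 of prefix2010. Of the 9 other alternatives *GJA1* passed in 5, being lost with library totals (adjusted p = 0.0956), no filter (0.0544), the myelin score as covariate (0.191) and without libraries 1 and 15 of prefix2010 (0.0572). *GJB6* passed in 6 of the 9, being lost with no filter (0.0598), the prefix as a factor (0.264) and the myelin score as covariate (0.0865). With the myelin score as covariate *AQP4* was higher with a higher immature neuron score, at 0.11 ± 0.04 (0.0474), and over the 9 alternatives its adjusted p ran from 0.0474 to 0.513. In these fits *GFAP* passed as lower only without library 1 of prefix2009, at -0.15 ± 0.05 (adjusted p = 0.0157). Its correlation with the score was r = -0.20 over all libraries (permutation test, adjusted p = 0.328). It was -0.49 without that library (0.0297), -0.67 in prefix2010 (0.0481) and 0.32 in prefix2009 (0.364). By rho *GFAP* passed in none of these sets. *SLC1A3* passed as lower only without library 2 of prefix2011, at -0.09 ± 0.03 (0.0227). The positive slope of *ALDH1L1* was 0.01 ± 0.04 without libraries 1 and 15 of prefix2010, whose scores were 1.13 and 1.77. It passed as higher in 9 of the 32 fits, without library 1 or 8 of prefix2009, library 2, 7, 11, 12, 13 or 14 of prefix2010 or library 1 of prefix2011, with an adjusted p down to 0.0133. It also passed as higher with library totals (0.0435) and with the share of reads in no feature as covariate (0.0116), its adjusted p over the 9 alternatives running from 0.0116 to 0.828.

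**Figure D2:**
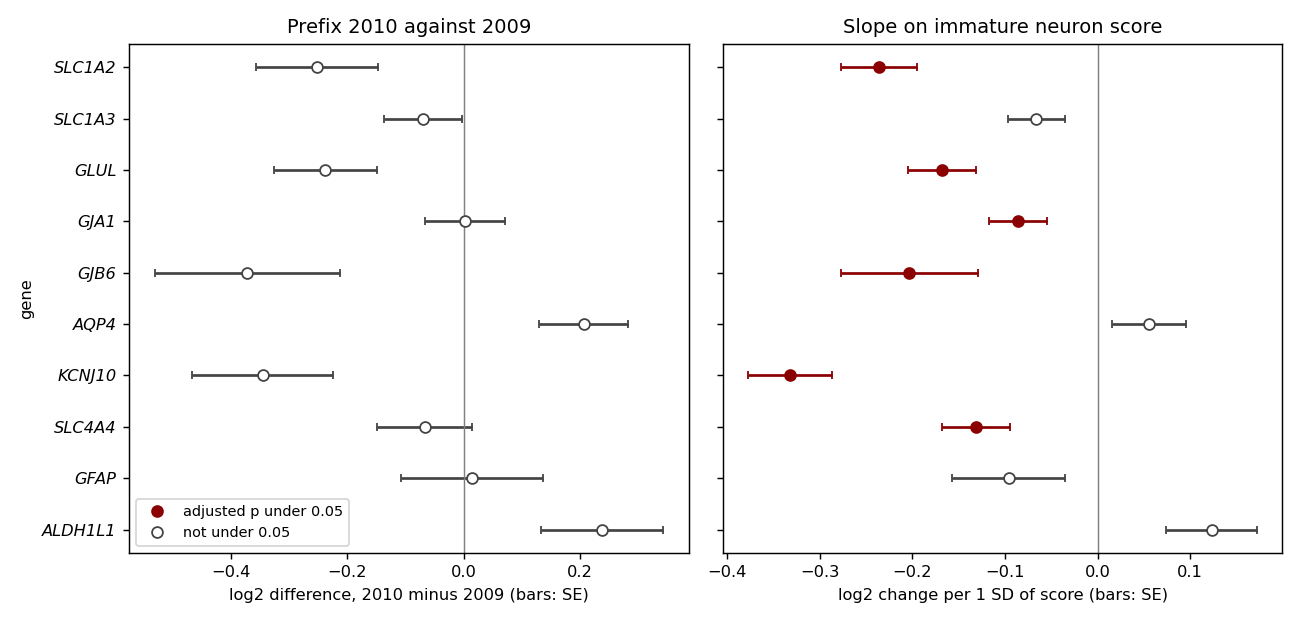
Log2 difference of prefix2010 minus prefix2009 (left) and log2 change per SD of the immature neuron score (right) for each gene, with bars of 1 SE; filled points passed edgeR's test at an adjusted p under 0.05. No point is filled on the left, and 6 points, from *KCNJ10* at -0.33 to *GJA1* at -0.09, are filled on the right.

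**Figure D3:**
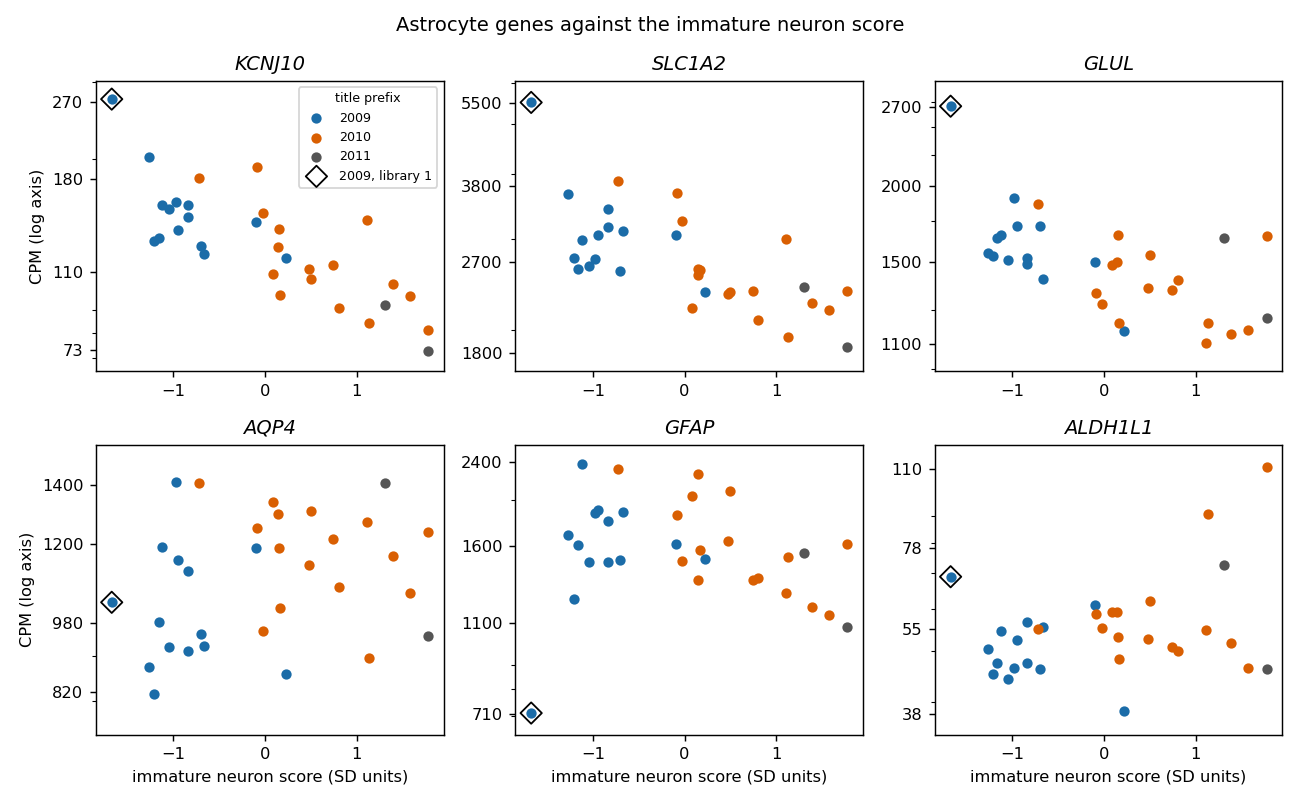
Level (CPM, log axis) of 6 genes against the immature neuron score (SD units), one point per library coloured by title prefix, with library 1 of prefix2009 in a diamond. *KCNJ10*, *SLC1A2* and *GLUL* fall to the right, *AQP4* shows no common slope, *GFAP* is lowest in the diamond and *ALDH1L1* is raised in 2 libraries of prefix2010.

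A score of myelination was built the same way from 10 genes, among them *MBP* and *MOG*. Its correlation with the immature neuron score was r = -0.42 over the 32 libraries. *KCNJ10*, which oligodendrocytes also express, was higher in libraries with a higher myelin score, with a slope of 0.24 ± 0.06 per SD (adjusted p = 0.0239), and was the only one of the 10 genes to pass, where 2.17% of genes were called higher. Of the 10, 7 had an unadjusted p under 0.05, 6 with a positive slope and *ALDH1L1* with a negative one. An unadjusted p under 0.05 was found for 3428 of 19949 genes outside the score. The *KCNJ10* slope was 0.19 with the prefix as a factor (adjusted p = 0.044). It was 0.11 when the immature neuron score was added (0.348) and 0.18 without libraries 1 and 15 of prefix2010 (0.166). It was also lost without library 1 of prefix2009 or library 1, 3 or 15 of prefix2010, where its adjusted p reached 0.0664, and over the other alternatives it ran from 0.00531 to 0.348.

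The share of reads in no gene feature moved with 3 of the 10 genes by Pearson r. *SLC4A4* had r = 0.65 (permutation test, adjusted p = 0.000825 over 30 relations), *SLC1A2* 0.57 (0.00432) and *KCNJ10* 0.54 (0.00675). By Spearman's rho only *SLC4A4* passed (rho = 0.53, permutation test, adjusted p = 0.0151). *SLC1A2* (rho = 0.36, 0.0944) and *KCNJ10* (rho = 0.37, 0.0944) did not. Without library 1 of prefix2009, which has the highest share, r was 0.50 (adjusted p = 0.0235), 0.39 (0.0781) and 0.38 (0.0781). In prefix2010 alone it was 0.37, 0.32 and 0.27, and none passed. Without the 2 libraries farthest from the median share r was 0.49, 0.32 and 0.31, so the relations of *SLC1A2* and *KCNJ10* rest in part on those libraries. The slopes of these genes on the immature neuron score were -0.10 ± 0.03, -0.20 ± 0.03 and -0.29 ± 0.04 with this share as a covariate, and all 3 passed.

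Correlation among the 10 genes was taken over the 45 pairs on log2 CPM. Over all 32 libraries 16 pairs passed a two-sided permutation test with adjustment over the 45, all of them positive, and 13 passed by Spearman's rho. The share of pairs of other genes that would pass was not counted, so the 16 are not shown to be particular to these genes. The 95th percentile of r over 19949 other genes ran from 0.36 for *GFAP* to 0.67 for *KCNJ10*. It was 0.63 for *SLC1A2* and 0.58 for *SLC4A4*. The pair *SLC1A2* and *KCNJ10*, the main glutamate transporter and the potassium channel, was the closest, with r = 0.91 and rho = 0.87 (permutation test, adjusted p = 0.00045). Its r was 0.87 in prefix2009 (adjusted p = 0.0127), 0.90 in prefix2010 (0.00045), 0.885 without library 1 of prefix2009 and 0.88 without the 2 libraries farthest from the median of *SLC1A2*. Within prefix2009 the pair did not pass by rho (rho = 0.58, permutation test, adjusted p = 0.169). Without library 1, r there was 0.64 and did not pass (0.142). *SLC4A4* followed both, with r = 0.69 to *SLC1A2* (rho = 0.53) and 0.68 to *KCNJ10* (rho = 0.55), each at adjusted p = 0.00045 by the permutation test. Without library 1 of prefix2009 these were 0.52 (0.0138) and 0.56 (0.0103).

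Further pairs included *GLUL*. Its correlation was r = 0.71 with *SLC1A3* (rho = 0.57, permutation test, adjusted p = 0.00045) and 0.63 with *GJA1* (rho = 0.61, 0.00126). In prefix2010 the pair *GLUL* and *GJA1* had r = 0.75 (permutation test, adjusted p = 0.0151) and was the only pair besides *SLC1A2* and *KCNJ10* to pass there. The 2 glutamate transporters correlated at r = 0.61 (rho = 0.47, permutation test, adjusted p = 0.00347), and at 0.39 (0.0746) without library 1 of prefix2009. The 2 connexins did not pass, with r = 0.37 (rho = 0.41, permutation test, adjusted p = 0.089). *AQP4* and *ALDH1L1* were in none of the 16 pairs. By Spearman's rho they passed with each other (rho = 0.51, permutation test, adjusted p = 0.0213), while their r of 0.34 did not pass. Without library 1 of prefix2009, *ALDH1L1* passed by rho with *AQP4* (rho = 0.55, 0.0181) and with *GFAP* (rho = 0.51, 0.0219). By r neither passed there.

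*GFAP* also was in none of the 16 pairs, and its correlations moved when library 1 of prefix2009 was left out. By Spearman's rho over all libraries it passed with *GJA1* (rho = 0.48, permutation test, adjusted p = 0.0287) and with *AQP4* (rho = 0.43, 0.0475). With all libraries r was 0.29 with *GJA1*, 0.02 with *GLUL*, -0.13 with *SLC1A3* and 0.40 with *AQP4*. Without that library it was 0.67 (permutation test, adjusted p = 0.0009), 0.56 (0.0103), 0.38 (0.0746) and 0.45 (0.0421). Within prefix2009 the correlation of *GFAP* and *SLC1A3* was -0.44 with that library and 0.83 without it. In prefix2010, which that library is not part of, *GFAP* had r = 0.67 with *GJA1* (permutation test, adjusted p = 0.0705) and 0.65 with *GLUL* (0.0712). Of the 45 pairs, 13 passed without library 1 of prefix2009. Of the 16 pairs called with all libraries, 7 were among these 13 and 9 were lost, and of the 6 gained 5 included *GFAP*. Within prefix2009, 14 passed, none of them by Spearman's rho, and 1 passed there without library 1.

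**Figure D4:**
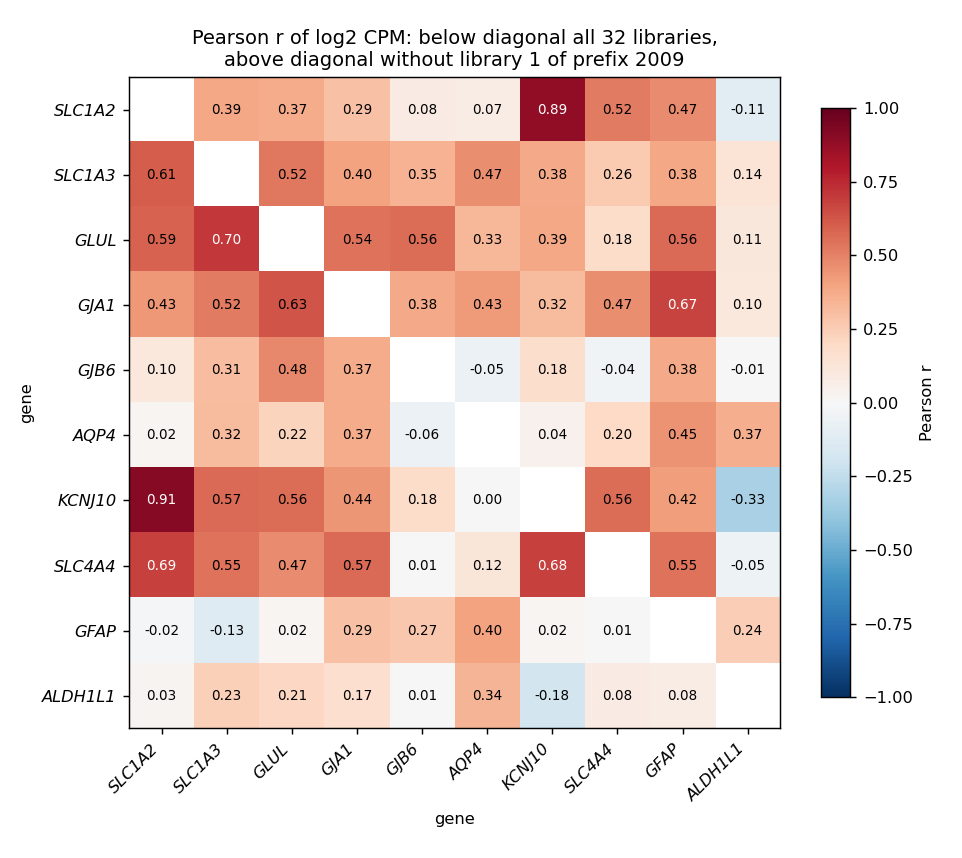
Pearson r of log2 CPM for the 45 pairs, over all 32 libraries below the diagonal and without library 1 of prefix2009 above it; colour runs from blue at -1 to red at 1. The pair *SLC1A2* and *KCNJ10* is high on both sides (0.91 and 0.89), and the *GFAP* row rises from 0.29 to 0.67 for *GJA1*.

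**Figure D5:**
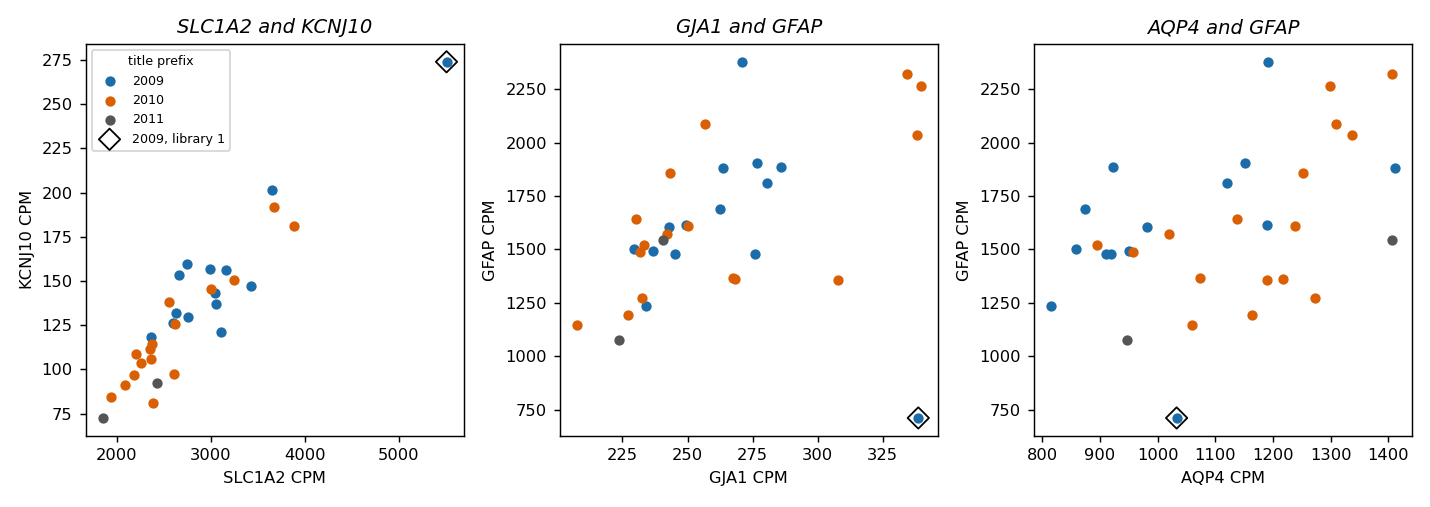
Levels (CPM, linear axes that do not start at 0) of 3 pairs of genes, one point per library coloured by title prefix, with library 1 of prefix2009 in a diamond. The diamond extends the line of *SLC1A2* and *KCNJ10* at 5506 and 274 CPM and lies far from the other libraries for *GFAP* at 712 CPM.

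The genes outside the 10 with the most similar pattern were listed as a description. To the mean of the 10 genes, the highest correlations over 32 libraries were those of *MTMR10* (r = 0.91), *ERBB2IP* (0.90), *NUDT6* (0.87), *NDRG2* (0.86) and *GNA13* (0.85), out of 19949 genes. *NDRG2*, itself an astrocyte marker, was also the gene most like *GLUL* (0.87). LOC103237726 was the gene most like *SLC1A2* (r = 0.98), at 0.97 in prefix2009 and 0.98 in prefix2010. *MERTK*, a phagocytic receptor of astrocytes, was among the 3 most like *SLC1A3* (0.76), *FGF2* was first for *GJA1* (0.77), *HSPB8* first for *GFAP* (0.77) and *FBLN1* first for *AQP4* (0.78). *TPP1* and *WNK1*, a kinase that regulates chloride cotransporters, were the 2 most like *KCNJ10*, both at 0.91. *RORB* was first for *SLC4A4* (0.87), *PPWD1* for *GJB6* (0.72) and LOC103231026 for *ALDH1L1* (0.83). Each r compares genes within the same 32 libraries, which differ in depth and in the share of reads in no gene feature, and the 95th percentile of r with *SLC1A2* over other genes was 0.63.

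Related genes gave a mixed picture for the prefixes. Among 15 other astrocyte markers 1 was higher and 1 lower in prefix2010, with a median log2 difference of 0.002. Over all genes, 7.07% were called higher and 5.29% lower. Of 10 other genes of the glutamate and glutamine cycle, 2 were higher in prefix2010 and 2 were lower. The glutamine carriers *SLC38A1* (0.29 ± 0.07, adjusted p = 0.00521) and *SLC38A3* (0.29 ± 0.09, 0.0249) were higher. The carrier *SLC38A2* (-0.18 ± 0.06, 0.0283) was 1 of the 2 lower genes. Of 4 genes of GABA and glycine uptake, *SLC6A11*, which encodes the astrocytic GABA transporter GAT-3, was higher (0.30 ± 0.09, 0.0208). Of 9 endfoot anchoring genes 3 were higher: *DAG1*, dystroglycan (0.24 ± 0.05, 0.00125), *MLC1* (0.20 ± 0.05, 0.00799) and *AGRN*, agrin (0.53 ± 0.15, 0.0176). Of 9 other genes of ion and acid handling, the potassium channel *KCNK1* (-0.59 ± 0.13, 0.00303) and the sodium pump regulator *FXYD1* (-0.52 ± 0.14, 0.0105) were lower and none was higher. Of 9 other gap junction genes, *GJC1*, connexin 45, was higher (0.75 ± 0.12, 0.000218).

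Against the immature neuron score, 6 of the 9 other ion and acid handling genes were lower and none was higher. *FXYD1* had a slope of -0.45 ± 0.04 (adjusted p = 8.79e-11) and *KCNK1* of -0.35 ± 0.06 (2.12e-05). Of 15 other astrocyte markers 6 were lower, among them *AGT*, angiotensinogen (-0.38 ± 0.06, 5.48e-06), and 1 was higher, *ID4* (0.10 ± 0.04, 0.0403). The other gap junction genes were split, 3 higher and 4 lower, with *GJC1* at 0.43 ± 0.04 (8.16e-10). Endfoot anchoring genes were split as well, 3 higher and 2 lower, and the other glutamate and glutamine cycle genes 3 and 3. Of 6 tested reactive astrocyte genes 1 was lower, *TIMP1*, named here because it makes up the count (-0.17 ± 0.03, 0.000121), and none was higher. Of the radial glia and progenitor list 5 of 9 were higher, with *FABP7*, a fatty acid binding protein of radial glia, at 0.59 ± 0.04 (8.36e-13). The median slope over the 10 astrocyte genes was -0.11 and over all 19950 genes 0.00.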

How the data were processed

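Total RNA of 32 vervet hippocampus samples was depleted of ribosomal RNA and made into stranded libraries, per the labels' protocols. The authors deposited 1 table of raw read counts per gene, made with STAR and HTSeq per the submitters' processing notes. Versions, genome build and strand setting: not given in the sources used here. Of its rows, 33994 name genes and 5 do not (the share of reads in no gene feature among them) and stayed out of library sizes and tests. Depth was 9347635 to 19673621 counts per library. Floors of 3 counts cover counting error only. The ± values are standard errors from the edgeR fits and include the spread between libraries.

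Differences were tested on the counts with edgeR 4.0.16 in R 4.3.3 (quasi-likelihood, TMM scaling, low counts filtered with filterByExpr, Benjamini-Hochberg adjustment over all genes tested, threshold 0.05). All 32 libraries shared 1 fit per comparison. DESeq2 1.42.0, other scalings, filters, covariates and left-out libraries were alternatives, and the covariate fits with the immature neuron score and the joint removal of libraries 1 and 15 of prefix2010 were chosen after seeing the data. Levels were TMM-scaled CPM. Correlations used their log2 (prior count 2) and two-sided permutation tests with 100000 resamples (Python 3.11.15, scipy 1.17.1). The test was checked on simulated counts: in the prefix comparison 73% of genes changed by 0.5 on the log2 scale and 96% of those changed by 1 were recovered. Of genes changed by 0.5, 58% were recovered within low title numbers and 60% between title numbers. No smaller change was simulated in these comparisons, and the differences of the 10 genes were all smaller. The 10 genes and the lists were chosen with earlier results of these data known. Named from other lists were up to 4 genes with the smallest p in the prefix comparison, and as most similar the 10 genes with the highest r to the mean of the 10 and the 3 for each gene. Some results on listed genes are not reported here.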

Additional observations from a re-analysis of the deposited data

Results flagged for a closer look

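Within the 7 libraries of prefix2010 with low title numbers and the 9 with high ones, the highest and lowest library of each gene was compared with its nearest neighbour, relative to the range of the group. In 3 of 20 such groups the end library lay further away than the limit of Dixon's test, and chance marks about 1 in 20. *ALDH1L1* was at 90.5 CPM in library 1 of prefix2010, with the next of the 7 at 59.0 CPM. It was at 111.4 CPM in library 15 of prefix2010, with the next of the 9 at 62.1 CPM. *SLC1A2* was at 3878 CPM in library 16 of prefix2010, with the next of the 9 at 2621 CPM.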

How the results depend on the processing

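The number of the 10 genes called between prefix2010 and prefix2009, 0, became 1 with library totals, a mean CPM of at least 1, the share of reads in no feature or the myelin list as a covariate, and 2 with DESeq2, and ran from 0 to 3 when 1 library was left out. The count of 1 within low title numbers became 0 with library totals, the myelin list or the immature neuron score as a covariate, or without libraries 1 and 15 of prefix2010, and ran from 0 to 1 with 1 library left out. The count of 1 on the myelin score became 0 with the other score as a covariate or without libraries 1 and 15, and ran from 0 to 1. The count of 6 on the immature neuron score, all lower, ran from 5 to 7 with 1 library left out (4 to 7 lower and 0 to 1 higher). It was 4 lower without a filter, 4 lower and 1 higher with the other score as covariate, and 5 lower and 1 higher with library totals. With the immature neuron score added as covariate the prefix difference turned positive for *SLC1A2* (0.195), *SLC1A3* (0.136), *GLUL* (0.105), *KCNJ10* (0.241) and *SLC4A4* (0.233). That of *GJA1*, 0.003, was -0.001 with RLE scaling, no filter and DESeq2, -0.003 with a mean CPM of at least 1 and -0.002 without prefix2011, and ran from -0.029 to 0.03 with 1 library left out. That of *GFAP* ran from -0.049 to 0.068. The *AQP4* slope on the immature neuron score was -0.073 with the prefix as a factor. The correlation of *SLC1A3* and *GFAP* was 0.454 without the 2 libraries farthest from the median and ran from -0.232 to 0.383 with 1 left out, and that of *GLUL* and *GFAP* from -0.051 to 0.563. The cause was not tested. Over all genes, 6802 calls on the immature neuron score became 2389 with the prefix as a factor. The 645 on the myelin score became 311 without libraries 1 and 15, 1032 with the no-feature share and 366 with the other score. The 2964 between prefixes became 1831 without libraries 1 and 15 and 1 with the immature neuron score. The 1307 within low numbers became 709 without libraries 1 and 15, 827 with the myelin list and 1 with the immature neuron score. The 0 between title numbers became 108 in DESeq2, 44 with the immature neuron score, 4 with library totals and 2 with the myelin list. With 1 library left out, the calls over all genes ran from 504 (library 11 of prefix2010) to 2546 (library 1 of prefix2009) within low numbers, also moving by over 1.5 times without library 2 or 4 of prefix2009 or library 1 or 12 of prefix2010. They ran from 371 (library 1 of prefix2010) to 978 (library 13) on the myelin score, with 428 without library 16, and from 0 to 18 (library 7 of prefix2010) between title numbers, with 2, 3 and 4 without library 10, 15 and 16. No paired analysis was possible because the titles carry no replicate numbers shared between groups. None of the 10 genes had a count of 0 in any library. The part of depth in these results was not tested.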

Other observations

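Markers of vessels, immune cells and myelin were measured in the same fits. Of 6 microglia markers 2 were higher in prefix2010, the complement genes *C1QA* (log2 difference 0.49 ± 0.15, edgeR adjusted p = 0.0337) and *C1QB* (0.43 ± 0.14, 0.0374). Only these 2 of the 6 had a positive difference, and the median over the 6 was -0.10. On the immature neuron score 2 of the 6 were higher and 2 were lower. Of 8 markers of mural cells and fibroblasts 1 was higher, the pericyte receptor *PDGFRB* (0.37 ± 0.08, 0.00361), and 6 were higher with a higher immature neuron score, none being lower. None of 10 myelin markers, 6 endothelial markers, 6 tested markers of choroid plexus and ependyma and 7 tested reactive astrocyte genes passed between the prefixes. On the immature neuron score 4 of the 10 myelin markers were lower and 2 of the 6 endothelial markers higher. Over all genes, 17% were called higher and 17.1% lower on this score, and 7.07% higher and 5.29% lower between the prefixes. The summed level of the choroid plexus and ependyma markers ran from 63.3 to 105.6 CPM in prefix2009 and from 59.8 to 468.8 CPM in prefix2010. That of the mural cell and fibroblast markers ran from 189.5 to 647.3 CPM and from 260.0 to 583.1 CPM.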
